A study of Arabidopsis thaliana with 10 samples.

Results

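Seedlings of Arabidopsis thaliana given dexamethasone were compared with seedlings given its solvent DMSO at 24 h of treatment. The comparison rests on 4 of the 10 arrays of the series, 2 with dexamethasone and 2 with DMSO, chosen by the treatment and time in their titles. The dexamethasone group held the Atglk1;Atglk2 double mutant, a transposon knockout of both GLK genes in the Col-0 background, after 24 h with dexamethasone. The DMSO group held the same double mutant after 24 h with the solvent, so per the labels both groups carry both insertions and differ in the added agent. The titles call the dexamethasone arrays induced, and no label used here names a transgene, its promoter or the line's number of clones. Seedlings grew for 10 days on plates, and the labels then give 48 h in liquid medium with hygromycin. For this they were moved to flasks of about 100 plants, under 16 h of light and 8 h of dark a day. Each array therefore measured RNA pooled from many whole seedlings. Whether replicates were separate flasks is not stated, so p-values reflect the spread between these arrays only, and that spread may be technical. Groups at 4 h, of 2 arrays each with dexamethasone and with DMSO, are set beside the 24 h values where a member was followed over time.

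GLK1 and GLK2 are related transcription factors of the GARP family that promote chloroplast development. In Arabidopsis they are known for activating nuclear genes of chlorophyll synthesis, of the light harvesting antenna and of the photosystems, and plants without both are pale. The photosynthetic complexes are built from nuclear and plastid products together: photosystem cores, the cytochrome b6f complex, ATP synthase and the large Rubisco subunit are encoded largely in the plastid, and most antenna proteins in the nucleus. Dexamethasone is a synthetic steroid that releases a protein fused to a glucocorticoid receptor domain into the nucleus, and plants have no such receptor of their own. The series title gives the targets of AtGLK1 as its subject.

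Signals are MAS5 intensities on a linear scale, with every array scaled to the same mean, and the median signal of the 10 arrays lay between 33.9 and 35.9. Changes are differences of log2(signal + 4.35), tested with limma over 14575 probe sets whose signal was above percentile 40 on 2 or more arrays. Signals under percentile 40, near 20, cannot be told from background, because the table holds no detection calls. Of the leaf marker list 5 of 14 genes had a probe set of their own, and all 5 lay above percentile 40 on all 4 arrays. Rubisco activase RCA had signals of 5975 and 5789 with dexamethasone and 5793 and 5580 with DMSO. Of the root list 3 of 12 were measured, all above percentile 40, as whole seedlings hold roots. The 1 measured gene of 6 in the flower list, AT5G45880, did not exceed 1.48 on any of the 4 arrays. GLK1 and GLK2 have no probe set in the annotation used here, so neither the knockout nor the level of GLK1 with dexamethasone could be checked. In such bulk RNA, fewer cells of a type and less RNA per cell cannot be told apart.

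A single probe set passed the test at 24 h. It is 249035_at, for which the annotation gives no gene. Its signal was 433 and 302 with dexamethasone, against 15.3 and 9.07 with DMSO. Both dexamethasone arrays lay far above both DMSO arrays, and the DMSO signals lay under percentile 40. It rose by 4.50 on the log2 scale (SE 0.27, limma adjusted p = 4.2e-05, n = 2 each), the 1 call among 14575 probe sets or 0.00686%. With its DMSO signals that low, the size depends on the constant added before the log: it was 4.82 with a constant of 1 and 3.75 with 16, and passed with both. At 4 h its signals were 290 and 438 with dexamethasone and 7.33 and 9.23 with DMSO, a log2 change of 4.84. It was thus high on all 4 dexamethasone arrays of the series.

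Another unnamed probe set, 266273_at, chosen after its values were seen, had the same shape at a lower level. Its signals at 24 h were 34.4 and 22.4 with dexamethasone and 1.25 and 0.318 with DMSO. The groups did not overlap, and the dexamethasone arrays lay just above percentile 40 while the DMSO arrays lay far under it. Its log2 change was 2.66 (SE 0.45), which the test did not call (adjusted p = 0.521). At 4 h its signals were 17.8 and 35.1 with dexamethasone and 0.567 and 0.594 with DMSO.

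The 2 DMSO arrays were the least alike of the 6 pairs at 24 h. They correlated across probe sets with r = 0.9699 and differed by more than 1 log2 unit at 335 probe sets. The dexamethasone arrays correlated with r = 0.9872 and differed by that much at 63. DMSO replicate 2 was close to the dexamethasone arrays, with 55 such probe sets against dexamethasone replicate 1 and 86 against replicate 2. DMSO replicate 1 differed from the same arrays at 309 and 310.

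DMSO replicate 1 carried high signals that none of the other 3 arrays shared. On it 146 probe sets, 1.00% of those tested, lay more than 1 log2 unit above the highest of the others, and 74 of these have a gene name, 0.937% of the named probe sets. Dexamethasone replicate 1, dexamethasone replicate 2 and DMSO replicate 2 had 0 such probe sets each. The median signal of the 146 was 35.9 and 34.5 on the dexamethasone arrays, 155 on DMSO replicate 1 and 31.9 on DMSO replicate 2. Against DMSO replicate 2 alone, 112 of them lay above 0 with dexamethasone and their median log2 change was 0.17, against -0.75 with both DMSO arrays. Over all 14575 probe sets, 7490 lay above 0 against DMSO replicate 2 alone, with a median of 0.006. The negative median of the 146 thus rested on 1 control array.

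AT4G12500 stood furthest apart. Its signals were 60.7 and 60.2 with dexamethasone and 2011 and 44.9 with DMSO. The other arrays lay close together, and DMSO replicate 1 alone was high. Its log2 change was -2.28 with both DMSO arrays and 0.40 against replicate 2. Its neighbour in locus number, AT4G12490, had 169 and 245 with dexamethasone and 3580 and 149 with DMSO, and its log2 change was -1.84 with both and 0.44 against replicate 2.

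The chitinase CHI, an enzyme that cuts the chitin of fungal walls, had signals of 17.6 and 26.2 with dexamethasone and 305 and 27.2 with DMSO. Its groups did not overlap, although DMSO replicate 2 lay only just above dexamethasone replicate 2. Its log2 change was -1.93 (SE 0.79), and -0.28 against DMSO replicate 2 alone. The cell wall peroxidase PRX52 had 3.63 and 6.84 with dexamethasone and 98.5 and 2.73 with DMSO. On 3 of its 4 arrays PRX52 lay under percentile 40, and its log2 change was -1.51 with both DMSO arrays and 0.42 against replicate 2.

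The same excess touched members of annotated defence families. The class III peroxidase AT5G64120, annotated as peroxidase 71, had 455 and 420 with dexamethasone and 3088 and 323 with DMSO. Peroxidase Prx37 had 88.3 and 113 with dexamethasone and 387 and 81.1 with DMSO. Both were high on DMSO replicate 1 only. The 5 peroxidases tested had a median difference of -2.08 and -1.74 when dexamethasone replicates 1 and 2 were set against DMSO replicate 1, and of 0.12 and 0.38 when they were set against DMSO replicate 2. The transcription factor WRKY53, known for its part in defence and leaf senescence, had 11.1 and 16.4 with dexamethasone and 40.8 and 15.9 with DMSO. Only its signal on DMSO replicate 1 lay above percentile 40. The defensin PDF1.4 had 26.0 and 17.9 with dexamethasone and 96.3 and 20.0 with DMSO. Its signals on dexamethasone replicate 2 and DMSO replicate 2 lay under percentile 40. The cytochrome P450 CYP71B23 had 56.0 and 86.1 with dexamethasone and 296 and 64.1 with DMSO. In each of these 3 genes DMSO replicate 1 was the high array and DMSO replicate 2 lay within or next to the dexamethasone values. Their families differed in this. DMSO replicate 1 exceeded replicate 2 in 5 of 5 WRKY factors tested, with a median difference of 0.29. It did so in 8 of 12 cytochromes P450, with a median of 0.19, and in only 3 of 9 defensin-like genes, with a median of -0.02.

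The opposite, a low value on DMSO replicate 1 only, was less frequent. It held for 31 probe sets, 0.213% of those tested, 12 of them named. AT3G28550 had 55.4 and 54.7 with dexamethasone and 13.4 and 65.7 with DMSO. AT5G23840 had 75.0 and 68.9 with dexamethasone and 17.1 and 57.7 with DMSO, and of the 5 named genes with the largest shortfall it was the 1 with both DMSO arrays under both dexamethasone arrays.

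The probe sets high on DMSO replicate 1 were high on another array of the series. At 4 h, 140 of the 146 had their highest signal on dexamethasone replicate 2, and 63 exceeded the other 3 arrays there by more than 1 log2 unit. The shares of all probe sets that did so at 4 h were not counted. Their median signal at 4 h was 32.6 and 83.4 with dexamethasone and 34.3 and 39.3 with DMSO. AT4G12500 had 71.6 and 2581 with dexamethasone at 4 h and 92.8 and 89.9 with DMSO. The 2 arrays that carried the signal thus bore opposite treatments.

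**Figure D1:**
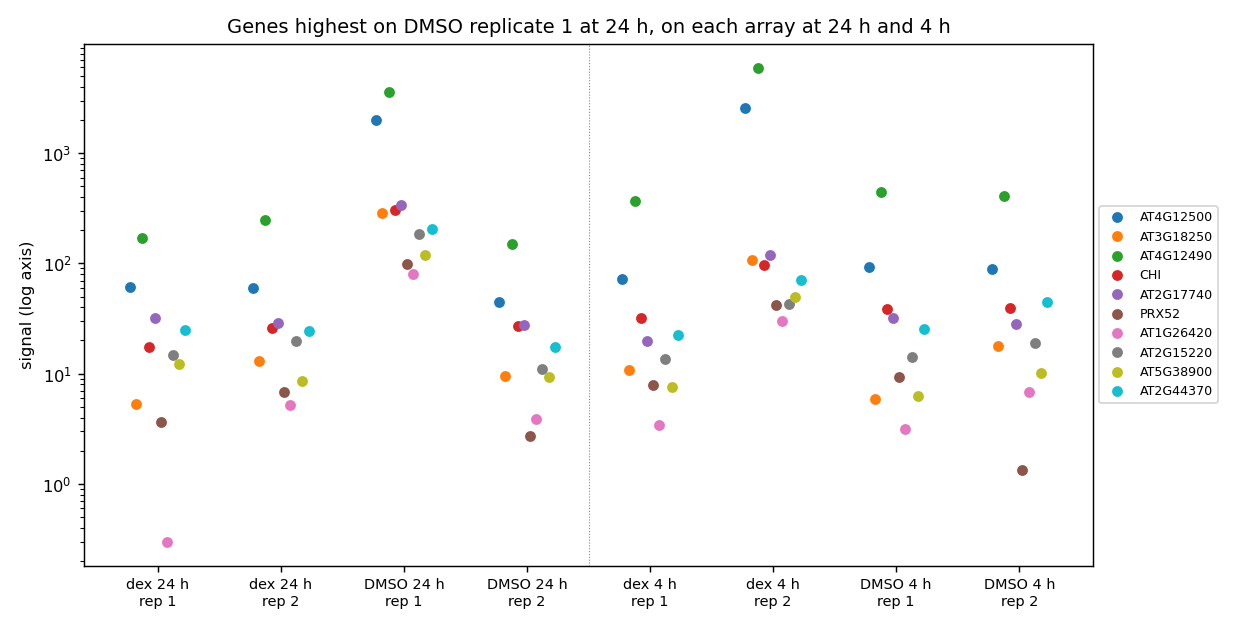
Signal on a log axis for the 10 named genes with the largest excess of DMSO replicate 1 over the other arrays at 24 h, with each array in a column of its own: 24 h left of the dotted line and 4 h right of it. Each point is 1 gene on 1 array. All 10 are highest on DMSO replicate 1 at 24 h, and at 4 h dexamethasone replicate 2 is the high array.

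Because of that array, genes were ranked by the gap between the groups, the lowest signal of the higher group against the highest of the lower group on the log2 scale, which asks that both DMSO arrays lie on the same side. Both dexamethasone arrays lay above both DMSO arrays for 1434 of 7898 named probe sets, or 18.2%, and below both for 1136, or 14.4%. None of these passed the test, and 451 of all probe sets, or 3.09%, had an unadjusted p below 0.05. The 12 genes with the widest gap in each direction were selected on this contrast, so their values are a description.

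AT3G05640 had the widest gap among named genes that were higher. Its signals were 68.8 and 39.1 with dexamethasone and 16.3 and 18.3 with DMSO, with the DMSO signals under percentile 40. The log2 change was 1.38 (SE 0.34, adjusted p = 0.999). The dexamethasone arrays differed from each other more than the DMSO arrays did, and the groups stayed apart. At 4 h AT3G05640 had 68.9 and 29.4 with dexamethasone and 15.8 and 18.0 with DMSO, again without overlap, a log2 change of 1.23.

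AT3G56230 followed with 41.0 and 36.4 with dexamethasone and 17.1 and 21.1 with DMSO (log2 change 0.88, SE 0.23). AT3G19430 had 101 and 152 with dexamethasone and 56.4 and 64.9 with DMSO (0.98, SE 0.31), and AT5G67390 had 55.1 and 76.9 with dexamethasone and 31.9 and 35.5 with DMSO (0.87, SE 0.29). These 3 lay below 0 at 4 h, where their log2 changes were -0.29, -0.54 and -0.16.

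In some of these genes the replicates of a group nearly coincided. AT2G19385 had 113 and 115 with dexamethasone and 72.1 and 70.9 with DMSO (log2 change 0.64, SE 0.17). AT5G59480 had 98.6 and 97.2 with dexamethasone and 61.4 and 67.2 with DMSO (0.58, SE 0.14). In both, the dexamethasone arrays differed by little. AT3G15357 had 36.7 and 37.4 with dexamethasone and 23.6 and 23.9 with DMSO (0.56). At 4 h AT3G15357 had 30.8 and 19.0 with dexamethasone and 47.3 and 42.8 with DMSO, so its groups were apart in the opposite direction (-0.79).

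AT1G61450 had 41.1 and 34.1 with dexamethasone and 23.0 and 19.2 with DMSO (log2 change 0.72). The remaining 4 were AT4G22510, AT2G23950, NET2D, a gene of the actin-binding NET family, and AT3G15780, with log2 changes of 1.08, 0.79, 0.68 and 0.68. Their DMSO signals lay under percentile 40 on both arrays, as did AT4G22510 on dexamethasone replicate 1, so those sizes are uncertain. Of the 12 genes, 6 lay above 0 and 6 below 0 at 4 h.

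Among named genes that were lower, AT5G39520 had the widest gap with DMSO signals above percentile 40. Its signals were 29.0 and 31.7 with dexamethasone and 92.9 and 68.9 with DMSO, a log2 change of -1.28 (SE 0.33, adjusted p = 0.999). Both dexamethasone arrays lay well under both DMSO arrays, and DMSO replicate 1 was the higher of the pair. At 4 h AT5G39520 overlapped, with 21.0 and 53.4 with dexamethasone and 42.1 and 38.8 with DMSO. AT4G36430 had 60.8 and 80.2 with dexamethasone and 154 and 114 with DMSO (-0.88, SE 0.32), and at 4 h it too was highest on dexamethasone replicate 2, at 193.

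AT5G07730 had 27.3 and 26.5 with dexamethasone and 39.5 and 48.1 with DMSO (log2 change -0.62). At 4 h it had 38.5 and 34.0 with dexamethasone and 24.3 and 26.2 with DMSO, apart in the opposite direction (0.46). Another 5 lay within narrow ranges in each group at 24 h: AT5G44390 (-0.63, SE 0.49), AT4G37820 (-0.54, SE 0.18), AT1G20230 (-0.52, SE 0.21), AT3G49725 (-0.52, SE 0.20) and AT2G48060 (-0.51, SE 0.22). In AT1G20230 the arrays read 25.4 and 25.8 with dexamethasone and 38.7 and 38.6 with DMSO. The replicates of AT5G44390 lay further apart at 4 h, with 12.4 and 50.6 with dexamethasone and 35.4 and 19.9 with DMSO.

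AT5G56520 and AT1G20390 had log2 changes of -0.72 and -0.61, with dexamethasone signals under percentile 40. AT3G45460 (-1.64) and AT5G02430 (-0.63) lay under percentile 40 on all 4 arrays. Of the 12 lower genes, 6 lay above 0 and 6 below 0 at 4 h.

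**Figure D2:**
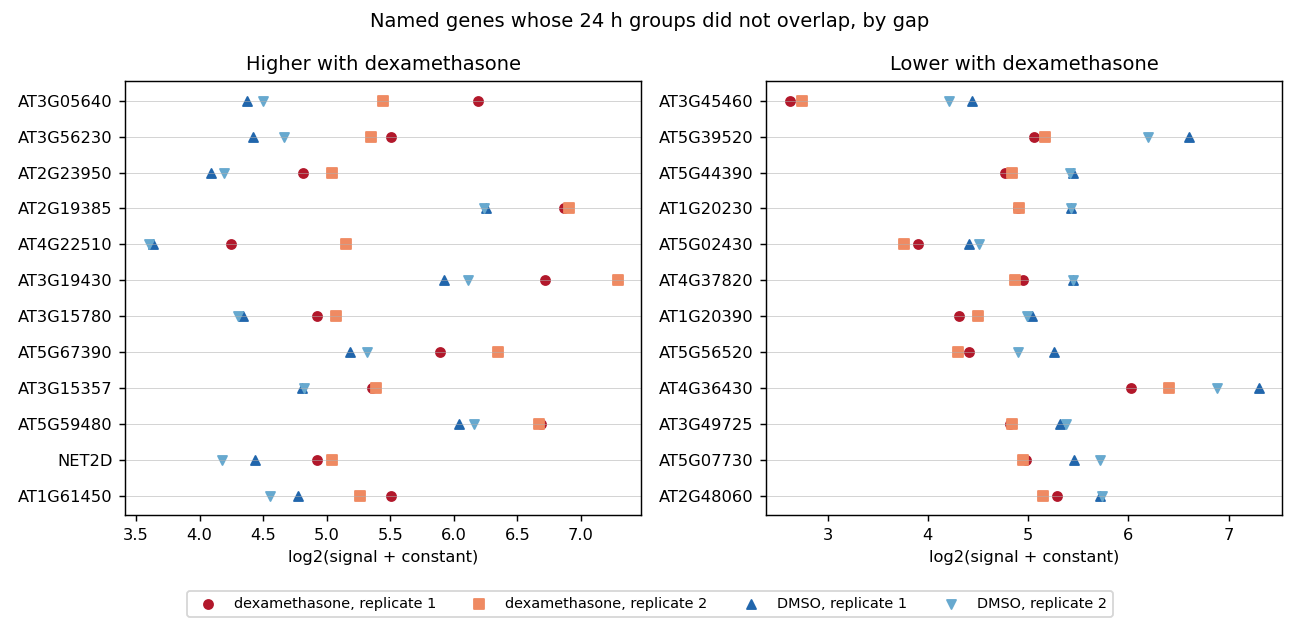
Log2(signal + constant) on each of the 4 arrays at 24 h for the 12 named genes with the widest gap that were higher with dexamethasone, left, and the 12 that were lower, right. Circles and squares are the dexamethasone replicates and triangles the DMSO replicates, and in every row the groups lie apart because the rows were chosen for it.

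Genes encoded in the plastid lay mostly above DMSO. Of 69 such genes with a probe set of their own, 67 were tested, and ndhF and rps14 were not. Of the 67, 63 lay above 0, where 52.5% of all probe sets did, and none passed. In 36 both dexamethasone arrays were above both DMSO arrays and in 0 below, against 18.0% and 14.1% of all probe sets. The median log2 change was 0.19, beside 0.01 over all probe sets tested. The median signal was 1175 and 1183 with dexamethasone and 1033 and 979 with DMSO.

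The DMSO arrays differed in these genes by as much as the groups did. DMSO replicate 1 lay above replicate 2 in 55 of the 67, by a median of 0.21. Against DMSO replicate 2 alone, 65 of 67 lay above 0, with a median of 0.30, and against DMSO replicate 1 alone 49, with a median of 0.11. Both dexamethasone arrays were above DMSO replicate 1 in 38 and below it in 5, where 39.5% and 33.4% of all probe sets were. Both were above DMSO replicate 2 in 58 and below it in 1, where 35.4% and 32.4% of all probe sets were. DMSO replicate 1, with the excess in other genes, was thus the control array nearer to dexamethasone in plastid genes.

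Some measures of RNA differed between the groups as well. The labelling of such arrays starts from the poly(A) tail, which is short or absent in most plastid transcripts. The 3′ to 5′ signal ratio of the first pair of GAPDH control probe sets was 0.972 and 0.993 with dexamethasone and 0.865 and 0.835 with DMSO, and that of ubiquitin was 2.49 and 2.75 with dexamethasone and 2.34 and 2.27 with DMSO. In both the groups did not overlap. The second GAPDH pair overlapped, with 0.851 and 0.958 with dexamethasone and 0.905 and 0.974 with DMSO. That of actin was 2.22 and 1.95 with dexamethasone and 2.28 and 1.96 with DMSO, with overlap, and the signal of 25S ribosomal RNA was 532 and 2319 with dexamethasone and 700 and 913 with DMSO. The part of these measures in the plastid values was not tested.

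Photosystem II, which oxidises water, had 15 plastid genes tested, 14 of them above 0 and 9 without overlap, with a median of 0.26. These 9 were all higher, where 18.0% of all probe sets were. Small subunit psbT had the largest log2 change among plastid genes. Its signals were 410 and 383 with dexamethasone and 279 and 232 with DMSO (0.63, SE 0.18). Small subunit psbL had 479 and 411 with dexamethasone and 341 and 316 with DMSO (0.43). The genes of the reaction centre proteins D1 and D2 also lay apart: psbA had 1587 and 2435 with dexamethasone and 1303 and 1555 with DMSO (0.46), and psbD had 440 and 527 with dexamethasone and 372 and 305 with DMSO (0.51). In psbA the gap was narrow, as dexamethasone replicate 1 barely exceeded DMSO replicate 2. The antenna gene psbC was tighter, with 1164 and 1232 with dexamethasone and 1012 and 992 with DMSO (0.26). In psbK replicate differences exceeded any difference of groups: 4196 and 2163 with dexamethasone and 3822 and 1999 with DMSO.

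Photosystem I, which reduces ferredoxin, had 7 genes tested including the assembly factors ycf3 and ycf4, all above 0 and 3 without overlap, with a median of 0.17. These 3 were all higher, where 18.0% of all probe sets were. The iron-sulfur subunit gene psaC had 449 and 463 with dexamethasone and 367 and 308 with DMSO (log2 change 0.43). The core gene psaA had 718 and 660 with dexamethasone and 617 and 435 with DMSO (0.41), and its partner psaB overlapped, with 2458 and 2610 with dexamethasone and 2463 and 2009 with DMSO. The difference in psaB rested on the low DMSO replicate 2.

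The cytochrome b6f complex, which passes electrons between the photosystems, was the 1 plastid complex of more than 1 gene in which no member overlapped. All 6 of its plastid genes were higher on both dexamethasone arrays, where 18.0% of all probe sets were. Their median was 0.32. Subunit IV gene petD had 47.0 and 67.9 with dexamethasone and 39.1 and 37.3 with DMSO (log2 change 0.52). Cytochrome f gene petA had 2425 and 2320 with dexamethasone and 2015 and 2133 with DMSO (0.19). The small subunit genes petN, petG and petL had changes of 0.40, 0.36 and 0.28, and petB, for cytochrome b6, had 0.17. The 4 differences between single arrays had medians of 0.20 and 0.33 against DMSO replicate 1 and 0.24 and 0.44 against DMSO replicate 2, so this complex depended less on the control array than photosystem I, whose medians were -0.00 and 0.10 against replicate 1 and 0.29 and 0.33 against replicate 2. The difference between complexes was not tested.

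Of the 6 ATP synthase genes all lay above 0 and 3 without overlap, with a median of 0.17. These 3 were all higher, where 18.0% of all probe sets were. The membrane subunit gene atpI had 68.6 and 76.8 with dexamethasone and 58.0 and 40.3 with DMSO (log2 change 0.54), and atpH and atpF had 0.35 and 0.21. The other 3, atpA, atpB and atpE, overlapped, with DMSO replicate 1 within the dexamethasone range or above it.

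The NDH complex, which returns electrons around photosystem I, had 9 genes tested, all above 0 and 7 without overlap, with a median of 0.28. These 7 were all higher, where 18.0% of all probe sets were. Gene ndhE had 458 and 411 with dexamethasone and 349 and 264 with DMSO (log2 change 0.51), and ndhA had 1266 and 1123 with dexamethasone and 950 and 911 with DMSO (0.36). In ndhC replicates nearly coincided, with 1643 and 1640 with dexamethasone and 1393 and 1379 with DMSO (0.24). The other NDH genes without overlap were ndhK (0.40), ndhG (0.40), ndhD (0.28) and ndhJ (0.13).

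The large Rubisco subunit gene rbcL had 403 and 476 with dexamethasone and 294 and 320 with DMSO, apart with a log2 change of 0.51 (SE 0.14, adjusted p = 0.999). At 4 h its log2 change was 0.26.

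Of 18 plastid genes of transcription and translation tested, 15 lay above 0, with a median of 0.11. In 4 the groups did not overlap, all higher, a share near the 18.0% of all probe sets. The RNA polymerase subunit gene rpoA had 1924 and 1897 with dexamethasone and 1742 and 1181 with DMSO (log2 change 0.41). The 3 ribosomal protein genes without overlap were rps18 (0.39), rpl32 (0.21) and rps16 (0.16). Against DMSO replicate 1 alone, 9 of the 18 lay above 0 and the median was 0.00. The 3 plastid genes of this group below 0 were rps15, rpl14 and rpl22, and the fourth plastid gene below 0 was psbN.

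Neighbours on the plastid genome did not always go together. In the cluster psbB, psbT, psbN, psbH, petB and petD, whose members other than psbN are known to share a transcript, psbT and petD had the largest log2 changes, 0.63 and 0.52. Within it psbH had 0.26 and petB 0.17. The psbN probe set, whose gene is known to lie on the opposite strand, read 33.1 and 70.5 with dexamethasone and 48.0 and 50.2 with DMSO. Its dexamethasone replicates lay on either side of both DMSO arrays. In the run psbJ, psbL, psbF and psbE, psbL stood at 0.43, and psbJ overlapped, with 1120 and 945 with dexamethasone and 1033 and 1001 with DMSO.

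**Figure D3:**
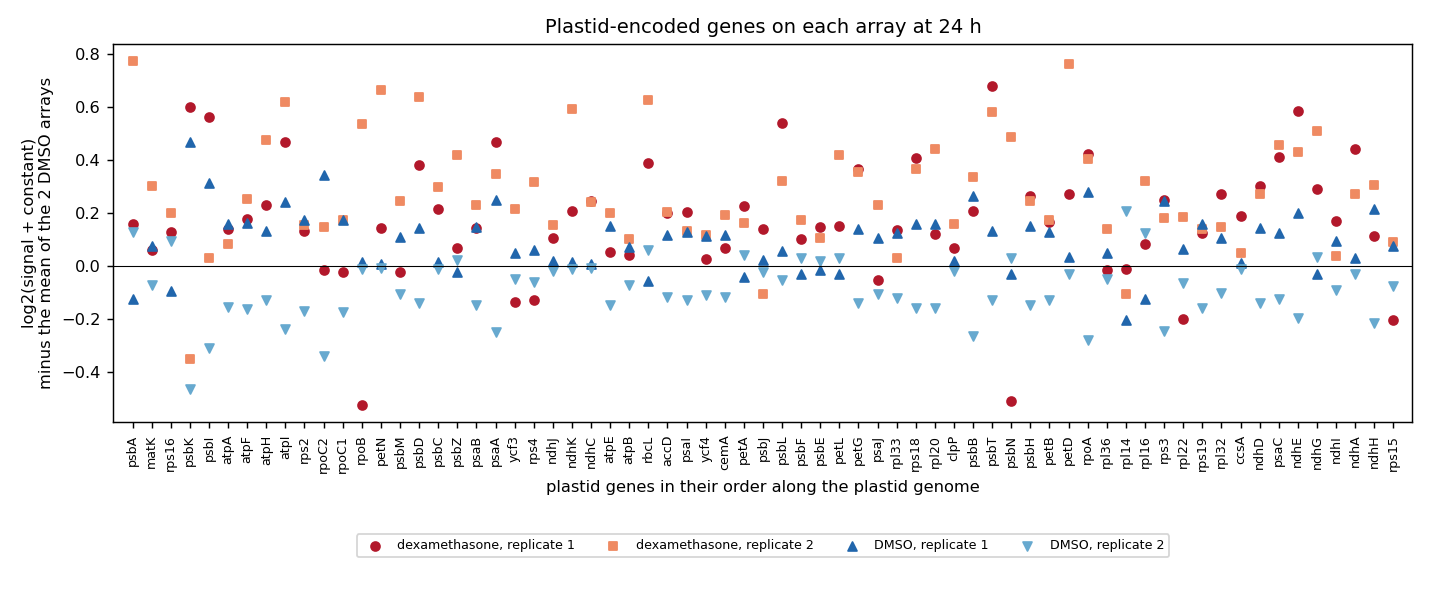
Log2(signal + constant) of each of the 67 plastid genes on the 4 arrays at 24 h, minus the mean of the 2 DMSO arrays, with genes in their order along the plastid genome. Circles and squares are the dexamethasone replicates, mostly above 0, and the upward triangles of DMSO replicate 1 lie above the downward triangles of DMSO replicate 2 in 55 genes.

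At 4 h the same plastid genes lay mostly on the other side. With their own control arrays, 22 of the 67 were above 0 and 45 below at 4 h, with a median of -0.11. At 4 h photosystem II had a median of -0.11 with 4 of 15 above 0, the cytochrome b6f genes 0.00 with 3 of 6, and the NDH genes 0.02 with 6 of 9. For psbT the log2 change was 0.63 at 24 h and -0.23 at 4 h. No plastid gene passed in the test of the difference between times, in which 0 of 14575 probe sets passed with limma and 799 had an unadjusted p below 0.05.

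Mitochondrial genes have 23 annotated probe sets here, some of them for the same gene. Of these 11 were tested, and the other 12 did not pass the filter on low signals. Of the 11, 9 lay above 0, with a median of 0.20. Their signals were low, with a median of 25.6 and 29.9 with dexamethasone and 30.7 and 23.8 with DMSO. In 5 both dexamethasone arrays were above both DMSO arrays and in 0 below, against 18.0% and 14.1% of all probe sets. The oxidase subunit gene cox1 had 101 and 115 with dexamethasone and 87.1 and 81.9 with DMSO (log2 change 0.33), and ccb382, a gene of cytochrome c maturation, had 124 and 153 with dexamethasone and 115 and 98.3 with DMSO (0.36). Of 7 probe sets annotated to nad1 of complex I, 3 were tested and they disagreed. One had 25.6 and 20.7 with dexamethasone and 40.7 and 23.8 with DMSO, with overlap, and another had 23.4 and 29.9 with dexamethasone and 20.5 on both DMSO arrays, higher without overlap. The family depended on the control array. Its median was 0.30 against DMSO replicate 2 alone and 0.10 against DMSO replicate 1 alone, and DMSO replicate 1 exceeded replicate 2 in 10 of the 11.

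Nuclear genes of photosynthesis, the class that GLK factors are known to act on, lay mostly above 0 with small changes. Of 28 annotated, 26 were tested. The antenna genes LHCB1.3 and CAB3 of the leaf marker list had no probe set of their own, so they were not among the 26. Their median log2 change was 0.13, with 19 above 0, and none passed. Both dexamethasone arrays were above both DMSO arrays in 11 and below in 2, against 18.0% and 14.1% of all probe sets. Without DMSO replicate 1 the median was 0.05, and without dexamethasone replicate 1 it was also 0.05, so it rested on these arrays. At 4 h, 21 of the 26 lay above 0 and the median was 0.14.

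The photosystem subunit genes were the steadiest of these. All 4 measured were higher on both dexamethasone arrays, where 18.0% of all probe sets were. Their median stayed between 0.21 and 0.30 for each of the 4 pairs of a dexamethasone and a DMSO array. The photosystem I gene PSAE-1 had 3956 and 3861 with dexamethasone and 3224 and 3048 with DMSO (0.32, SE 0.10, adjusted p = 0.999). The photosystem II gene PSBW had 2284 and 2506 with dexamethasone and 1966 and 1874 with DMSO (0.32, SE 0.12). PSBY, also of photosystem II, had 2767 and 2482 with dexamethasone and 1911 and 2365 with DMSO (0.30), and PSAN of photosystem I had 0.18. At 4 h the log2 changes of these 4 were 0.04, -0.09, 0.08 and -0.10, so they were near 0 there.

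Among antenna genes, LHCB4.1 and LHCB4.2 encode the minor antenna protein CP29. LHCB4.2 had 2735 and 2188 with dexamethasone and 1655 and 1994 with DMSO (log2 change 0.43, SE 0.15). LHCB4.1 had 3847 and 4204 with dexamethasone and 3005 and 3693 with DMSO (0.27). In both, DMSO replicate 1 was the lowest array, and against DMSO replicate 2 alone the changes were 0.29 and 0.12. The third gene LHCB4.3 overlapped, with 124 and 81.3 with dexamethasone and 82.4 and 102 with DMSO. At 4 h LHCB4.2 had a log2 change of 0.74 and LHCB4.1 of 0.18.

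The chlorophyll and heme branch was mixed. Of 9 tetrapyrrole genes tested, 5 lay above 0, with a median of 0.01. Without overlap 3 were higher and 2 lower, against 18.0% and 14.1% of all probe sets. The uroporphyrinogen decarboxylase gene HEME2 had 592 and 624 with dexamethasone and 544 and 519 with DMSO (0.19). CHLM, a methyltransferase of chlorophyll synthesis, had 1109 and 966 with dexamethasone and 880 and 940 with DMSO (0.19), and the protochlorophyllide reductase PORB had 0.14. The lower ones were HEMA2, a glutamyl-tRNA reductase at the start of the pathway, with 42.4 and 35.2 with dexamethasone and 64.1 and 43.5 with DMSO (-0.41), and SIRB of the siroheme branch (-0.18). In carbon fixation only SBPASE of the Calvin cycle was apart (0.13), and PRK read 2277 and 2062 with dexamethasone and 2080 and 2293 with DMSO, with overlap.

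Nuclear genes for organelle RNA editing and photosystem assembly were centred on 0. Of 14 tested, 7 lay above 0, with a median of 0.02. Without overlap 3 were higher and 3 lower, against 18.0% and 14.1% of all probe sets. OTP81 had 32.5 and 36.9 with dexamethasone and 26.4 and 28.5 with DMSO (0.30). The photosystem II assembly gene LPA1 had 80.8 and 94.9 with dexamethasone and 97.5 and 105 with DMSO (-0.20).

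**Figure D4:**
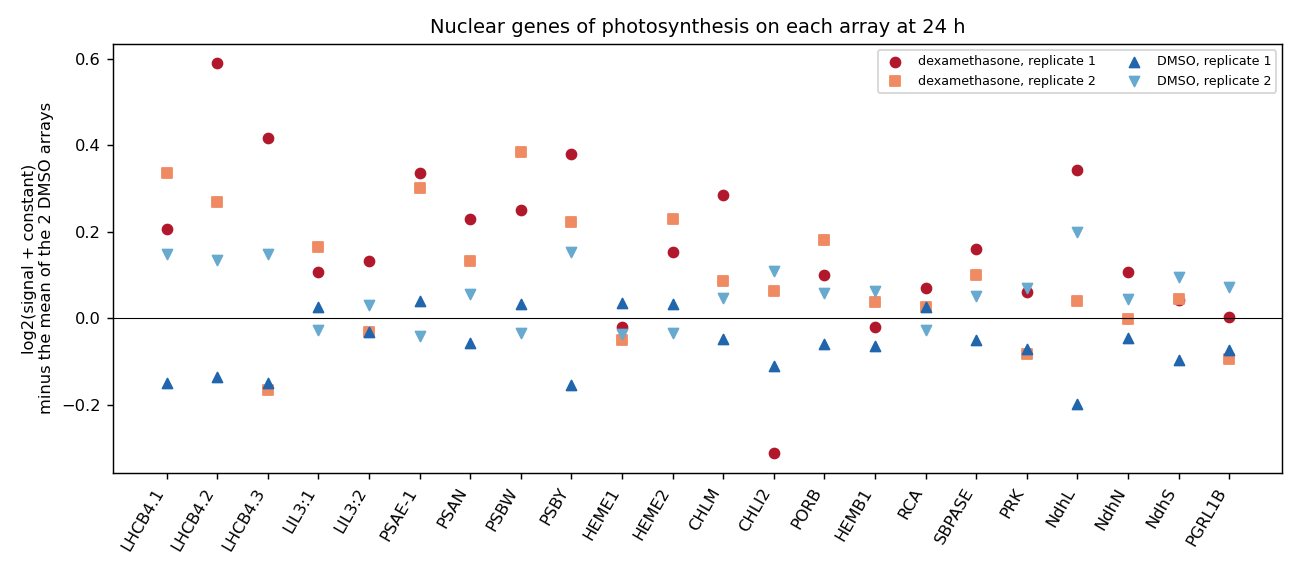
Log2(signal + constant) of 22 nuclear photosynthesis genes on each array at 24 h, minus the mean of the 2 DMSO arrays. In PSAE-1, PSAN, PSBW and PSBY both dexamethasone symbols lie above both triangles, and in HEME1, RCA and PRK the symbols of both groups overlap.

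Growth-related cell wall families lay above 0 with small values. Expansins loosen cell walls. Among the 12 tested of 18, 11 lay above 0 and the median was 0.21. In 4 the groups did not overlap, all higher, where 18.0% of all probe sets were. EXPA20 had 17.4 and 21.4 with dexamethasone and 11.5 and 12.7 with DMSO (0.52). Only its signal on dexamethasone replicate 2 lay above percentile 40. EXLA1 had 140 and 159 with dexamethasone and 93.1 and 126 with DMSO (0.45), and EXPA9 had 0.32. The expansin median was 0.31 and 0.32 against DMSO replicate 1 and 0.12 and 0.11 against DMSO replicate 2.

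Xyloglucan transferases, which cut and rejoin wall xyloglucan, lay above 0 in 8 of 8 and were higher without overlap in 3, where 18.0% of all probe sets were. Their median was 0.26, with 0.12 against DMSO replicate 2 alone and 0.28 against DMSO replicate 1 alone. XTH19 had 300 and 221 with dexamethasone and 172 and 214 with DMSO (log2 change 0.42), where DMSO replicate 2 nearly reached dexamethasone replicate 2. XTH20 had 0.39. Of 5 cellulose synthase-like genes all lay above 0, led by CSLD2 with 99.7 and 90.2 with dexamethasone and 80.3 and 78.5 with DMSO (0.25). Against DMSO replicate 2 alone 3 of these 5 lay above 0, with a median of 0.06. Against DMSO replicate 1 alone 5 did, with a median of 0.15. At 4 h, 3 of 12 expansins, 3 of 8 xyloglucan transferases and 0 of 5 cellulose synthase-like genes lay above 0.

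SWEET proteins export sugars across membranes. All 5 tested of 14 lay above 0, with a median of 0.24. In 2 both dexamethasone arrays were above both DMSO arrays, where 18.0% of all probe sets were. SWEET16, of the vacuolar membrane, had 60.9 and 64.4 with dexamethasone and 38.9 and 51.2 with DMSO (log2 change 0.45). The family's median was 0.57 for dexamethasone replicate 1 against DMSO replicate 1 and -0.04 for dexamethasone replicate 2 against DMSO replicate 2, so it turned with the arrays chosen.

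Detoxification families had members in both directions. UDP-glycosyltransferases attach sugars to small molecules, and 26 of 47 were tested, 11 above 0, with a median of -0.02. UGT88A1 was the clearest, with 477 and 386 with dexamethasone and 310 and 302 with DMSO (log2 change 0.49, SE 0.12, adjusted p = 0.999). Both dexamethasone arrays were well above a tight DMSO pair. At 4 h its log2 change was 0.78, and it did not overlap at either time. UGT84A4 and UGT71C1 had 0.52 and 0.45 at 24 h, and -0.48 and -0.28 at 4 h. UGT87A2 had 46.5 and 57.6 with dexamethasone and 159 and 50.5 with DMSO, the pattern of DMSO replicate 1.

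Glutathione transferases conjugate glutathione to reactive compounds. Of 11 tested of 13, 7 lay above 0, with a median of 0.09. The sign turned with the dexamethasone array. Against DMSO replicates 1 and 2, the median was 0.32 and 0.22 for dexamethasone replicate 1, and -0.04 and -0.22 for dexamethasone replicate 2. Dexamethasone replicate 1 exceeded replicate 2 in 11 of 11, by a median of 0.37. GSTU20 had 1879 and 1850 with dexamethasone and 1259 and 1564 with DMSO (log2 change 0.41, SE 0.16). GSTU22 was lower, with 58.4 and 33.7 with dexamethasone and 87.4 and 66.4 with DMSO (-0.72, SE 0.31). At 4 h the log2 change of GSTU20 was -0.33 and that of GSTU22 was -0.26, and both overlapped.

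Of 22 cytochromes P450 annotated by symbol, 12 were tested, with a median of -0.03. CYP71B36 had 19.2 and 15.1 with dexamethasone and 11.6 and 4.55 with DMSO (log2 change 0.84), with all 4 signals under percentile 40. CYP71B22 had 39.1 and 45.3 with dexamethasone and 61.8 and 58.4 with DMSO (-0.47), and at 4 h its log2 change was 0.60.

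Among other defence genes, of 9 defensin-like genes tested, 6 lay above 0, with a median of 0.03. PDF1.2, a defensin known as a jasmonate marker, had 261 and 293 with dexamethasone and 208 and 244 with DMSO (0.29), and PDF2.5 had 0.44. Of 5 WRKY factors, regulators of defence and senescence, 1 lay above 0 with both DMSO arrays and 1 against DMSO replicate 2 alone, with medians of -0.40 and -0.18. WRKY47 had 53.9 and 60.5 with dexamethasone and 84.9 and 69.7 with DMSO (-0.40), without overlap. The subtilase SBT3.5, a secreted protease, had 18.3 and 32.3 with dexamethasone and 119 and 35.4 with DMSO (-1.28), and -0.46 against DMSO replicate 2 alone.

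Single members of smaller families lay apart as well. IAA18, a repressor of auxin responses and the 1 Aux/IAA gene tested of 7, had 125 and 116 with dexamethasone and 144 and 159 with DMSO (log2 change -0.32, SE 0.12). SCPL27, a serine carboxypeptidase-like gene, had 94.8 and 76.8 with dexamethasone and 55.4 and 69.6 with DMSO (0.43). BGLU46, a beta-glucosidase, had 45.1 and 51.1 with dexamethasone and 30.8 and 38.5 with DMSO (0.43). The calmodulin-like gene CML23 had 18.0 and 22.6 with dexamethasone and 14.0 and 9.93 with DMSO (0.60). Only its signal on dexamethasone replicate 2 lay above percentile 40. IQD24 had 73.5 on both dexamethasone arrays and 48.0 and 62.9 with DMSO (0.39).

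Protein turnover families and bZIP transcription factors were centred on 0. The 23 ubiquitin-conjugating and ubiquitin-specific protease genes had a median of -0.03. Without overlap 5 were higher and 6 lower, against 18.0% and 14.1% of all probe sets. UBC37 had 40.8 and 41.3 with dexamethasone and 28.6 and 32.5 with DMSO (0.38), and UBC16 had 53.2 and 49.7 with dexamethasone and 66.2 and 62.7 with DMSO (-0.30). The 10 autophagy genes had a median of -0.02, with ATG8F, a protein of the autophagosome membrane, lower on both dexamethasone arrays (-0.16). The 9 bZIP factors had a median of 0.01, with BZIP28, a factor of the endoplasmic reticulum stress response, at -0.21. The clock gene GI read 189 and 203 with dexamethasone and 201 and 187 with DMSO, with overlap.

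**Figure D5:**
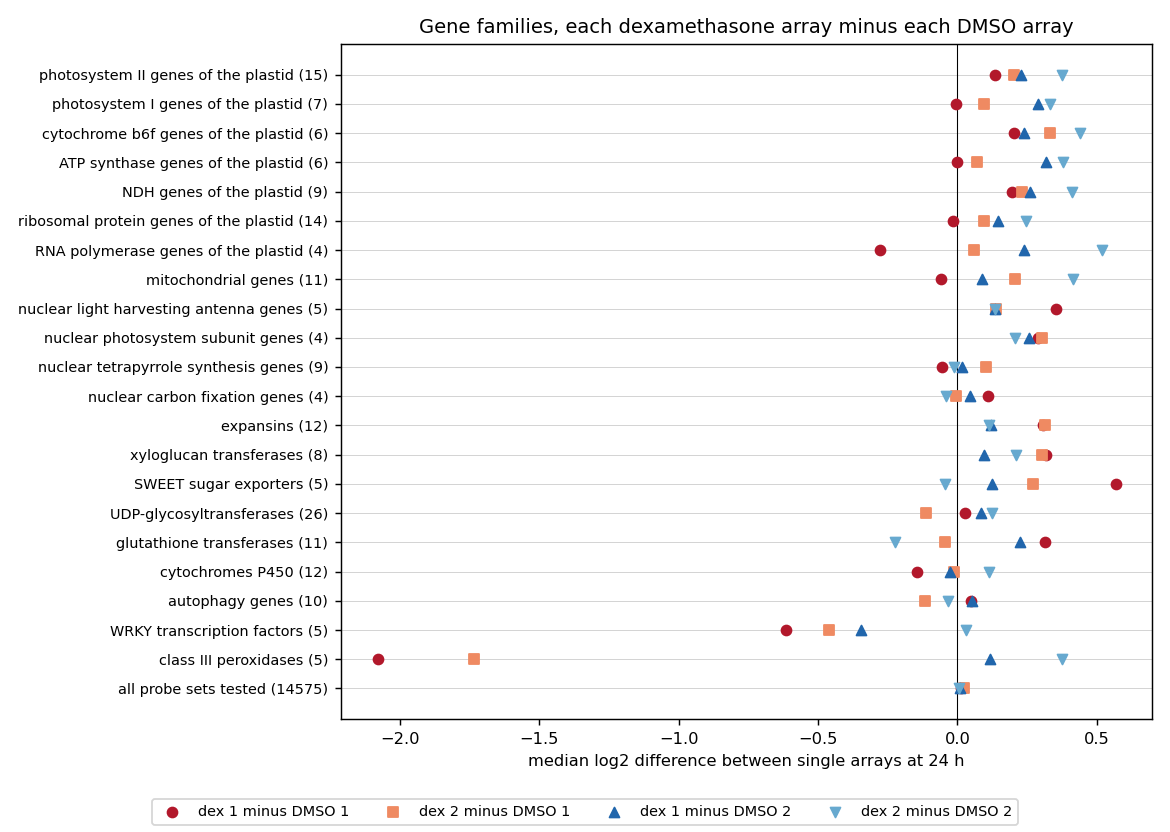
Median log2 difference over the tested members of each family for the 4 pairs of a dexamethasone array and a DMSO array at 24 h, with the number of tested members in brackets. Circles and squares use DMSO replicate 1 and triangles DMSO replicate 2: most plastid families lie further right with replicate 2, and class III peroxidases move from the far left with replicate 1 to the right of 0 with replicate 2.

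Set beside 4 h, few probe sets had groups apart at both times. Over all 14575 probe sets, 456 (3.13%) were higher on both dexamethasone arrays at both times, 352 (2.42%) lower at both, 491 (3.37%) higher at 24 h and lower at 4 h, and 369 (2.53%) lower at 24 h and higher at 4 h. The log2 changes at 24 h and 4 h, which share no array, correlated across probe sets with Pearson's r = -0.153, a description over genes that are not independent. The sign rested on the arrays that carried the excess. The correlation was 0.129 without DMSO replicate 1 at 24 h, 0.14 without dexamethasone replicate 2 at 4 h, and 0.137 without both.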

How the data were processed

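RNA of whole seedlings was measured on Affymetrix ATH1 arrays, 1 per sample, after total RNA extraction and biotin labelling, per the labels' protocols. The authors deposited MAS5 signal intensities on a linear scale. The submitters' processing notes name MAS5 and GCOS, and no version is given in the sources used here. The trimmed mean of every array was about 100.0 in the deposited table, and this scaling was kept, so a change in total messenger RNA cannot be seen. The number of arrays limits the precision.

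Of 22810 probe sets, 13513 have 1 gene in the platform annotation, 503 several and 8730 none, with 64 controls. Of the single-gene probe sets 13436 took RefSeq names (TAIR10.1, names and gene order only) and 77 kept the platform name. After adding 4.35 (percentile 20) and taking log2, limma 3.58.1 in R 4.3.3 fitted 1 mean per group to all 10 arrays (5 residual degrees of freedom), with eBayes and a trend. P-values were two-sided and adjusted by Benjamini-Hochberg over the 14575 probe sets kept, threshold 0.05. With 2 arrays against 2, an exact permutation test of a single value could not go below p = 0.3333. The fit was tested on simulated data. Tables and figures used Python 3.11.15, pandas 2.3.3 and matplotlib 3.10.9.

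Named were the 12 single-gene probe sets with the widest gap each way, the 10 with the largest excess and 5 with the largest shortfall on DMSO replicate 1, chloroplast family members, up to 4 members of other families by size of change, and probe sets that passed, with 266273_at added after its values were seen. Not every gene so chosen is printed. Families were defined by symbol or locus after the annotation had been seen, and members and lists were chosen with earlier results of these data known. No pairing of arrays by replicate number was seen: correlations of same-numbered deviations lay between -0.42 and 0.18. The -0.42 was between DMSO at 24 h and dexamethasone at 4 h, the groups with the arrays that carry the excess. With 2 arrays a group, such correlations can miss a shared batch or culture. Alternatives were another constant, no filter, quantile normalization, no trend, a replicate block, the 24 h arrays alone, and leaving out each array. Counts without a DMSO array and correlations without 2 arrays were added after seeing the data.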

Additional observations from a re-analysis of the deposited data

How the results depend on the processing

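With every processing alternative that kept all arrays, 249035_at was the 1 probe set that passed at 24 h; this includes the replicate block, which gave 1 at 24 h and 0 in the difference between times. Leaving out 1 array at a time gave between 1 and 8 at 24 h, with the 8 without DMSO replicate 2, which leaves the array with the excess as the control, and CHI then passed at -3.58 (limma adjusted p = 0.0339). In the difference between times the range was 0 to 14, with the 14 without dexamethasone replicate 1 at 4 h. The median of nuclear photosynthesis genes was 0.047 to 0.125 when 1 array was left out (0.054 without dexamethasone replicate 1, 0.047 without DMSO replicate 1) and 0.117 to 0.130 in the other settings.
With all arrays kept, none of the 113 genes examined, those with a log2 change in the text among them, changed sign. Of these 113 the sign turned without DMSO replicate 1 for AT4G12500 (0.40, against -4.96 without DMSO replicate 2), AT4G12490 (0.44, against -4.11), PRX52 (0.42, against -3.44) and AT3G28550 (-0.24, against 1.75). Of genes given by signal or side of 0 alone, AT5G64120, Prx37, CYP71B23, PDF1.4, UGT87A2, LHCB4.3, HEME1, rps15 and rpl22 turned without DMSO replicate 1, and psbK, psbJ, psbN, ycf3, ycf4, atpA, atpE, rpl14, PRK and GI without DMSO replicate 2. Some of these genes also turned without a dexamethasone array. Among them were psbK, psbJ, psbN, rps15 and rpl22 without dexamethasone replicate 1, and ycf3 without dexamethasone replicate 2. The correlation of the 24 h with the 4 h changes turned to 0.129, 0.14 and 0.137 without the arrays that carry the excess, and the cause of that excess was not tested. Unadjusted p below 0.05 held for 451 probe sets at 24 h, 885 with no filter and 1058 without DMSO replicate 2. Of 43 family medians, 23 kept their sign in every setting. Values that leave 1 array in a group assume that it varies like the other groups. The number of arrays and the missing detection calls limit all weak signals.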
